A study of Bos taurus with 9 samples.

Results

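Of the 455 genomic loci that the study predicted to be previously unannotated miRNA, 328 (72.1%) spanned exactly 27 bases, and these loci are described here among the 101889 loci of the deposited count table. A locus was taken when it was listed among the predicted miRNA and its end minus its start plus 1 was 27. The list itself rests on counts, since a locus had to reach a mean of 100 reads in at least 1 follicle size to enter it. Of the 328 loci, 326 reached this mean in medium, 326 in large and only 4 in small follicles, so 324 were admitted through the medium or large samples. The table held 3599 loci of 27 bases (3.53% of all loci), of which 3271 were in neither of the study's miRNA lists and none was among its 249 known or homologous miRNA loci.

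The RNA came from extracellular vesicles (EVs), the membrane-bound particles that cells release, in the follicular fluid of Bos taurus ovaries. Fluid was pooled by follicle diameter with 3 pools per size: follicles of 3-5 mm were called small, those of 6-9 mm medium, and those over 9 mm large, and EV small RNA was sequenced from each pool. Nothing was treated, the groups were defined by size alone, and the pools held healthy and atretic follicles together. Each value below is a raw count of reads on a locus, and the counts of a sample summed to between 8941598 and 14664460.

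A miRNA is cut from a hairpin-shaped precursor, first in the nucleus and then in the cytoplasm, and the mature strand is loaded into an Argonaute protein that it guides to partly complementary messenger RNAs. In the ovary, miRNAs act in granulosa and theca cells during follicle growth, and EVs in follicular fluid can carry them between cells. Mature animal miRNAs are usually shorter than the loci described here. A locus is called predicted when the sequence around it can fold into a hairpin with the locus in its stem. The folding is a property of the genome, while the bounds and the count of the locus come from the reads. The base sequence of the loci, and the genes in or near them, were not analysed here.

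The counts of the 328 loci were close to each other within every sample. The total of a locus over the 9 samples had a median of 1201 reads, with the middle 50% of loci from 1177 to 1228 and the central 90% from 1119.7 to 1267.3. In all, 314 of the 328 loci (95.7%) lay within 10% of the median. Predicted loci of the 2 nearest lengths gathered too, at other levels and less fully. Of the 58 predicted loci of 28 bases, 40 (69.0%) lay within 10% of their median of 12620 reads, and of the 25 of 26 bases, 16 lay within 10% of their median of 3912. Extremes were wide in each, from 612 to 14299 reads for 27 bases and from 746 to 14510 for 28 bases.

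The median locus had 77, 44 and 50 reads in small 1, 2 and 4, then 193, 135 and 97 reads in medium 5, 6 and 8, and 162, 239 and 199 reads in large 10, 11 and 12. Within a sample the spread was narrow, with the central 90% of loci between 61 and 95.65 reads in small 1 and between 209 and 266 reads in large 11. Leaving aside 8 loci described further below, the variance of the counts over loci was 1.11 to 2.00 times their mean in the 9 samples, where pure counting error gives a ratio of 1. With all 328 loci the ratio was between 55.6 and 192, beside 101 to 382 over the predicted loci of 28 bases and 95.9 to 672 over those of 26 bases. At an equal relative spread this ratio grows with the mean count. The median totals were 1201, 12620 and 3912 reads for 27, 28 and 26 bases, so these ranges do not rank the lengths by relative spread. Over the 320 loci without those 8, the coefficient of variation of the totals was 5.31%, against 2.88% from counting error.

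**Figure D1:**
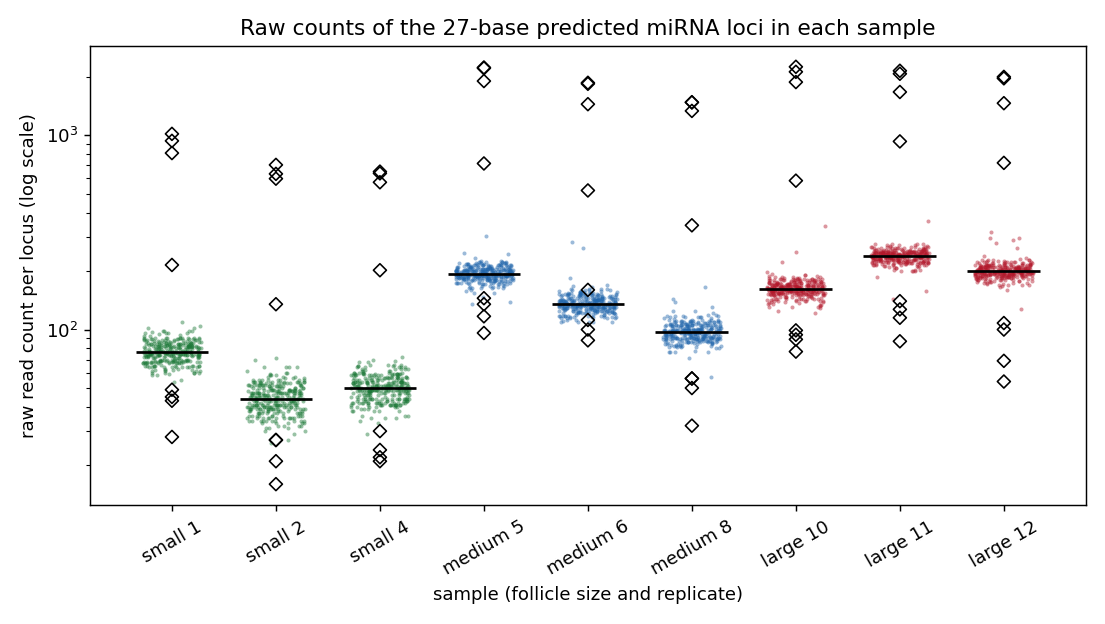
Raw read count of each 27-base predicted locus (vertical axis, log scale) in each of the 9 samples (horizontal axis), with the 8 loci whose totals depart from the median by more than 1.5 times as open diamonds and the median as a black bar. Most loci form a narrow band in each sample, around a median of 44 reads in small 2 and of 239 reads in large 11, and 4 diamonds stand above the band in each sample.

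Loci with near-identical sequence can share reads, and the handling of reads that match several places is not given in the sources used here. The count of a single locus is therefore uncertain as a measure of RNA made at that position, and the part of shared reads in the narrow spread was not tested. The reads covered most of each locus, since the study's own sum of reads at each base came to a median of 24.8 bases per counted read, or 91.8% of the locus.

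The loci were unevenly spread over the genome. They lay on 28 of the 31 chromosome names of the table (assembly UMD3.1), with none on chromosomes 14, 23 or MT, and 4 chromosomes held a single locus. Chromosome 6 held 46 loci, chromosome 4 held 42, chromosome 25 held 33, chromosome X held 32 and chromosome 27 held 30. These 5 chromosomes together had 183 loci, or 55.8% of the set, while they had 24.8% of all deposited 27-base loci and 19.6% of all deposited loci. The loci were divided between the strands, with 178 on the plus and 150 on the minus strand.

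**Figure D2:**
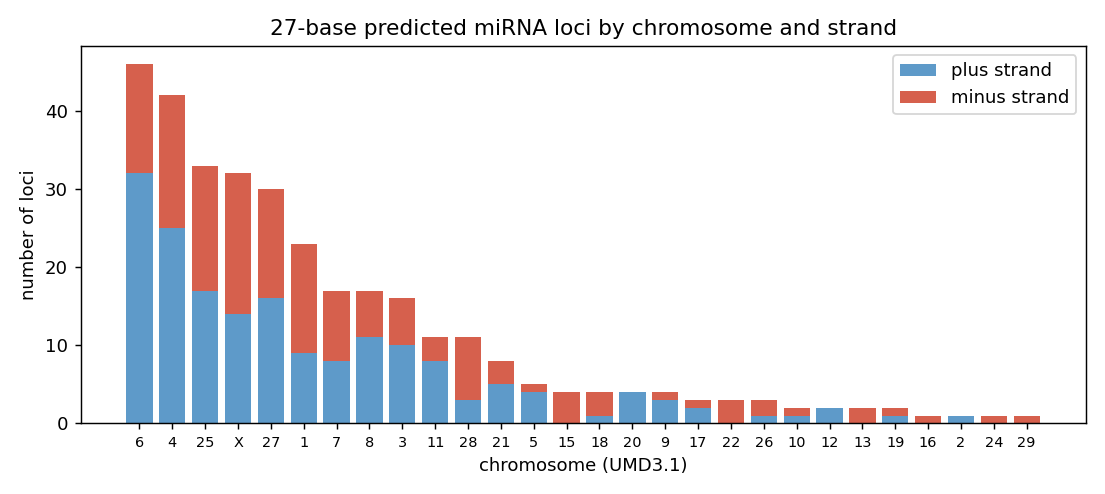
Number of 27-base predicted loci (vertical axis) on each chromosome that holds any (horizontal axis), split by strand. Chromosomes 6, 4, 25, X and 27 hold 183 of the 328 loci, and both strands appear on each of them.

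Neighbouring loci lay close together. When loci no more than 50 kb apart on a chromosome were joined, the 328 loci fell into 115 groups, of which 61 were single loci and 54 held the remaining 267 loci (81.4%). The 18 groups with 5 or more loci held 166. Within groups the distance from one start to the next ranged from 409 to 36736 bases with a median of 2425, and 169 of the 213 pairs of adjacent loci (79.3%) were on the same strand. In 23 groups both strands were present.

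The largest group lay at chr27:37558890-37650038 and held 22 loci over 91.1 kb, 10 of them on the plus and 12 on the minus strand. The next held 18 loci over 83.2 kb at chr6:17924473-18007644, where 17 were on the plus strand. A pair of groups held 15 loci each, one at chr25:30287817-30361791 with every locus on the plus strand and one at chr4:28956584-29007688 with 7 plus and 8 minus. The median total of a locus was 1200.5, 1208.5, 1197 and 1205 reads in these 4 groups, so groups on different chromosomes and strands had nearly the same level.

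The spacing on a strand had a preferred length. For 288 of the 328 loci another deposited 27-base locus, predicted or not, lay within 50 kb on the same strand, at a median distance of 1394 bases from start to start. Counted in steps of 100 bases, the fullest step was 1300 to 1400 bases with 85 loci, and 133 loci had their nearest such neighbour between 1200 and 1500 bases away.

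Deposited loci of other lengths stood at fixed distances from the 27-base loci. On the same strand, an 18-base locus began exactly 60 bases upstream of the 5' end of 191 of the 328 loci (58.2%), and a 35-base locus began exactly 89 bases downstream of it for 260 loci (79.3%). Both neighbours were present at 159 loci, at least 1 at 292 (89.02%) and neither at 36. Of the 3271 deposited 27-base loci outside the miRNA lists, 20.9% had at least 1 of these neighbours, against 0.108% of deposited loci of other lengths and 0 of the 127 predicted loci of other lengths. Since the neighbours were found in the same table after the distances had been seen, these shares are given as a description.

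Farther out, a locus of 39 or 40 bases lay within 1000 bases on the same strand of 267 loci (81.4%). Those upstream began at a median offset of -704 bases and those downstream at a median of 695 bases, and 63 of the 27-base loci had a 40-base locus at exactly -705 bases. The distance between the upstream and the downstream position is close to the preferred spacing of 27-base loci given above. Of all 2479 pairs of a 27-base locus and a deposited neighbour within 2000 bases, 2159 (87.1%) were on the same strand. No values for other deposited loci are set beside the shares in this paragraph, so they describe the 27-base predicted loci without a background.

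**Figure D3:**
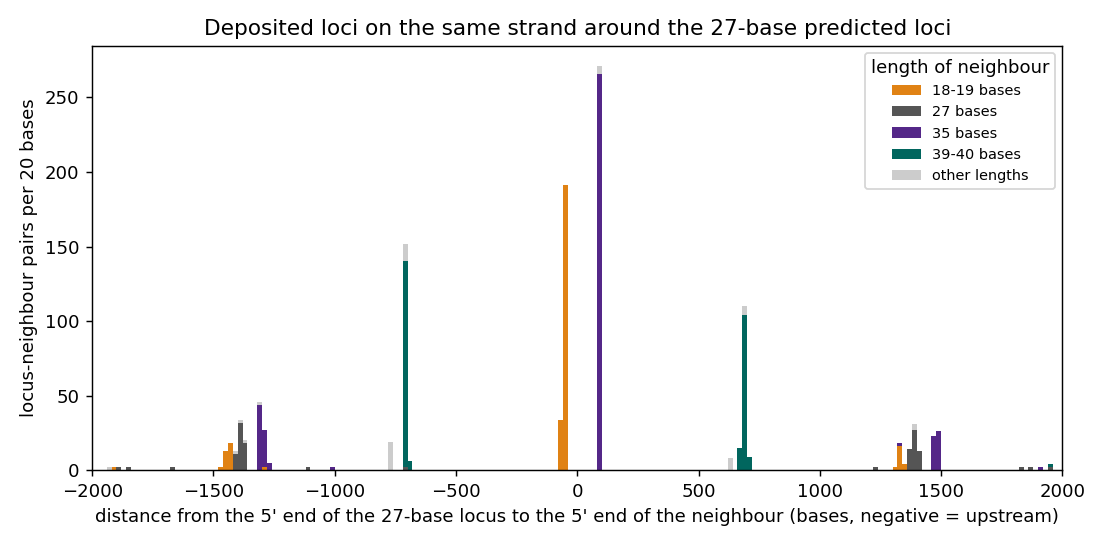
Number of pairs of a 27-base predicted locus and a deposited locus on the same strand (vertical axis, per 20 bases) by the distance between their 5' ends (horizontal axis, bases, negative is upstream), coloured by the length of the neighbour. A combination of distance and neighbour length seen at only a single 27-base locus is not drawn, so part of the background between peaks is missing. The pairs drawn stand in narrow peaks. These are the 18-base loci 60 bases upstream, the 35-base loci 89 bases downstream, the 39- and 40-base loci near -704 and 695 bases, and other 27-base loci near 1394 bases on either side.

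The neighbours differed in level as well as in position. The 191 upstream 18-base loci had a median total of 207 reads and the 260 downstream 35-base loci one of 763 reads, both below the 1201 reads of the 27-base loci. The 40-base loci were far higher, with a median total of 17923 reads, and the 39-base loci had 5406. These are raw counts of loci of different lengths, so they give the reads on each locus and not a level per base.

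The loci took up a small and uneven share of the counts on all deposited loci. Summed over the 328 loci, the counts were 0.190%, 0.183% and 0.179% of all counts in small 1, 2 and 4, then 0.577%, 0.427% and 0.339% in medium 5, 6 and 8, and 0.609%, 0.818% and 0.605% in large 10, 11 and 12. The 95% Wilson interval of each share was at most 0.00552 percentage points on either side and covers counting error only, since PCR reads without molecular identifiers are not independent molecules. The 3 sizes did not overlap, with the small samples lowest and the large samples highest, but 324 of the 328 loci had been admitted only through medium or large samples, and the order of the sizes is given as a description.

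Averaged over pools, the share was 0.184% ± 0.00514 for small, 0.448% ± 0.121 for medium and 0.677% ± 0.122 for large follicles (SD, n = 3 each). The large mean was 3.68 times and the medium mean 2.43 times the small mean, and the large mean was 1.51 times the medium mean. Taken as a share of the loci of 18 to 30 bases only, the means were 0.399%, 1.35% and 2.62%, and the same ratios were 6.57, 3.38 and 1.94. The medium pools alone ranged from 0.339% to 0.577%.

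Deposited loci in general moved in the same direction on this scale. The median over all 101889 loci, each divided by the total count of its sample, was 3.05 times as high in large as in small follicles, 2.67 times in medium as in small and 1.14 times in large as in medium. For the median 27-base locus the same ratios were 3.78, 2.43 and 1.56. Of the 85601 loci kept for testing, 69.7% had every large sample above every small sample on the share scale, as did 66.0% of the 11770 loci that reached a mean of 100 reads in at least 1 size. The 328 loci all did, and since they had to reach that mean and mostly did so outside the small samples, this count is no support for a difference. Every large sample was above every medium sample at 165 of the 328 loci, against 6.40% of the loci tested and 13.0% of those at the mean of 100. Every medium sample was above every small sample at 326, against 37.0% and 50.3%. After the TMM scaling described below, 9 of the 328 loci had every large sample above every small one, against 12.9% of the loci tested, 2 had every large above every medium one, against 6.21%, and 0 had every medium above every small one, against 5.40%.

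**Figure D4:**
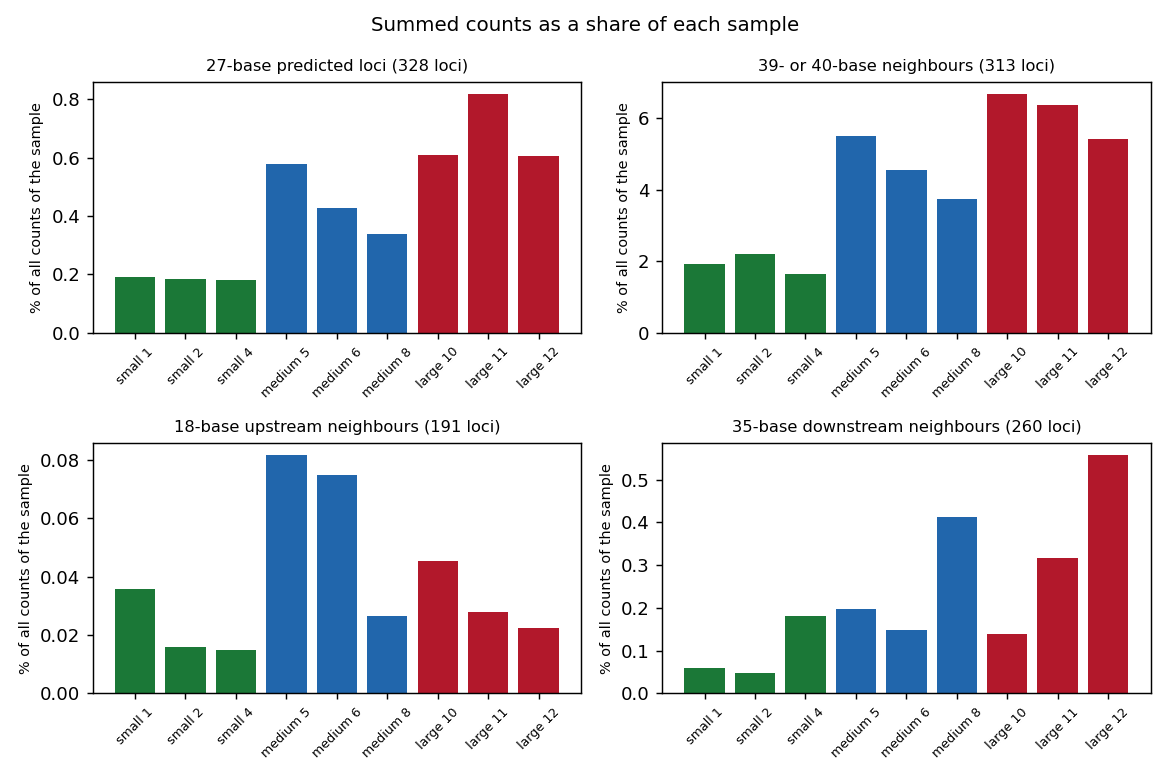
Summed counts as a percentage of all counts of each sample (vertical axes) for the 328 27-base predicted loci and for 3 sets of neighbouring loci on the same strand, with samples along the horizontal axes coloured by follicle size. The 27-base loci run from 0.179% in small 4 to 0.818% in large 11, while the 35-base neighbours are highest in large 12 and medium 8 and the 18-base neighbours in medium 5 and 6.

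The 18- and 35-base neighbours did not follow the 27-base loci from sample to sample, and ratios within a sample do not depend on how samples are scaled. For each read on the 27-base loci there were 0.306, 0.257 and 1.01 reads on the 35-base downstream loci in small 1, 2 and 4. The ratio was 0.342, 0.346 and 1.22 in medium 5, 6 and 8 and 0.227, 0.387 and 0.922 in large 10, 11 and 12. In each size 1 sample stood well above the other 2, small 4, medium 8 and large 12, and the sizes overlapped. Small 4, medium 8 and large 12 also had the lowest TMM factor of their size (a scaling factor described below), at 0.407, 0.721 and 1.31. Fluid of every size came from each of 3 collections, but the samples that share a collection are not given in the sources used here, so the part of the collection in this ratio was not tested.

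For the upstream 18-base loci the ratio was 0.189, 0.0864 and 0.0831 in the small samples, 0.141, 0.176 and 0.0779 in the medium samples and 0.0747, 0.0340 and 0.0371 in the large samples. All 3 large samples lay below all 6 others, and small and medium overlapped. The reads on the 39- and 40-base loci ranged from 7.81 times those of the 27-base loci in large 11 to 12.0 times in small 2, and the sizes overlapped.

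Differences between sizes were tested at every locus with the quasi-likelihood test of edgeR after TMM scaling, which sets the samples to a common level by a trimmed mean of log ratios over loci and so removes a shift shared by most loci. None of the 328 loci was called at a false discovery rate (FDR) of 0.05 in any comparison. Across all loci tested, 5.87% were called between large and small, 1.46% between medium and small and 0.00% between large and medium. At an unadjusted p of 0.05 in this test the number of 27-base loci was also 0 in all 3 comparisons. Over all loci tested it was 14373, 8278 and 5633 of 85601, in the order above. With only loci past the count minimum fitted, it was 37, 3 and 1 of the 328, beside 4084, 2859 and 1008 of 11770. In the predicted set alone it was 17, 7 and 11, beside 57, 31 and 33 of 455. At an FDR of 0.05 edgeR's exact test and DESeq2 called 0 of the 328 loci as well. For large against small they called 829 higher and 6310 lower of 85601, and 316 and 6391 of 85411.

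The lowest FDR of a 27-base locus was 0.506 for large against small, 0.882 for medium against small and 0.851 for large against medium. The median log2 fold change was 0.15 for large against small, -0.08 for medium against small and 0.23 for large against medium, and over all loci tested it was 0.09, 0.05 and -0.0017. The median standard error of a fold change was 0.40, 0.40 and 0.39 in the same order, and this is the error of a single locus, not of a median. The fold change was above 0 at 287 of the 328 loci for large against small, at 86 for medium against small and at 321 for large against medium, and the loci are not independent of each other. These counts rested on single samples. Without medium 6 they were 132 for large against medium and 291 for medium against small, and without small 2 the count for large against small was 161. Without other single samples the count for medium against small was 10 (medium 8), 26 (small 2), 51 (medium 5), 159 (small 1) and 196 (small 4). The choice of loci and samples fitted also turned the direction for medium against small, where the count was 265 (median log2 fold change 0.12) over loci past the count minimum, 247 (0.08) with only those sizes fitted and 190 (0.02) in the predicted set alone. The common dispersion of 0.188 over all loci corresponds to a biological coefficient of variation of 0.433.

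The outcome turned on the scaling. With samples scaled by their total count alone, a scale on which admission through medium or large samples favours higher values there, 328 loci were called higher in large than in small follicles, against a background of 59.5% of all loci, and 266 in medium than in small, against 28.1%. None was called between large and medium, where 0.161% of all loci were. The median log2 fold change of the 27-base loci was then 1.91, 1.29 and 0.63 for large against small, medium against small and large against medium, beside 1.81, 1.49 and 0.28 over all loci. Relative to this shared shift the 27-base loci differed by 0.10, -0.20 and 0.35. The TMM factors themselves ran from 0.407 to 1.97 and were lowest in the 3 small samples.

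**Figure D5:**
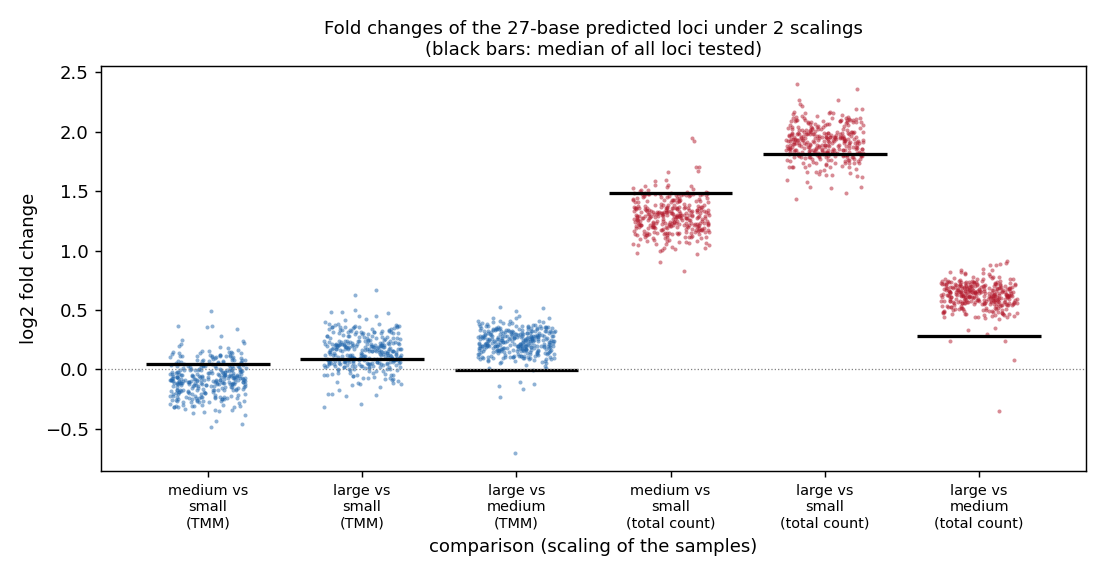
The log2 fold change of each 27-base predicted locus (vertical axis) in the 3 comparisons under TMM scaling (blue) and under scaling by the total count (red), with the median of all 85601 loci tested as a black bar. For large against small the points had medians of 0.15 under TMM and 1.91 under the total count, beside bars at 0.09 and 1.81. For medium against small the medians were -0.08 and 1.29, below bars at 0.05 and 1.49. For large against medium they were 0.23 and 0.63, above bars at -0.0017 and 0.28.

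The locus at chr22:37936196-37936222, on the minus strand, is singled out because the study named it among loci that differed between sizes in these same samples, so its values are no independent evidence. Its total of 1251 reads was typical of the set. It had 69, 33 and 41 reads in the small samples, 164, 135 and 106 in the medium samples and 160, 248 and 295 in the large samples. Against the median locus its count was lowest in small 2, at 0.750 times, and highest in large 12, at 1.48 times. Its log2 fold change for large against small was the highest of the 328 loci, at 0.67 with a standard error of 0.44 and an FDR of 0.506 in edgeR's quasi-likelihood test. Scaled by the total count it was 2.40 with a standard error of 0.44 and an FDR of 0.000981.

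Totals departed from the median by more than 1.5 times at 8 loci, 4 above and 4 below. The nearest totals inside this limit were 845 and 1795 reads, and the nearest outside were 708 and 4367. The 4 high loci held 10.3% of all reads on the set. Neither the 18-base nor the 35-base neighbour was present at any of the 4 high loci, and 2 of the 8 departing loci had at least 1 of them.

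The highest locus, chr17:72843353-72843379 on the plus strand, had a total of 14299 reads, 11.9 times the median. Its counts were 1017, 704 and 637 in the small, 2233, 1863 and 1480 in the medium and 2252, 2148 and 1965 in the large samples. The locus at chr19:38252-38278, also on the plus strand, had 13947 reads. Its counts were 936, 633 and 650, then 2216, 1841 and 1477, and then 2122, 2074 and 1998 in the same order. Every small raw count of both loci was below every medium and large count, and medium and large overlapped. This order was common on the share scale. There, 69.7% of the loci tested had every large sample above every small one, and 37.0% every medium above every small one. Under TMM the log2 fold changes for large against small were -0.21 and -0.17, with FDRs of 0.864 and 0.904 in the quasi-likelihood test.

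The locus at chr6:17966846-17966872, inside the group of 18 loci on chromosome 6, had 11677 reads, while the median of that group was 1208.5. It had 810, 598 and 573 reads in the small, 1902, 1446 and 1335 in the medium and 1879, 1671 and 1463 in the large samples. These 3 highest loci also had the largest Pearson chi-square between their distribution over the 9 samples and that of the summed set, a measure that grows with the number of reads. Per 1000 reads their chi-square was 44.4, 28.04 and 25.1 for the chromosome 6, 17 and 19 loci, which ranked 7, 10 and 12 of the 328. On that measure the first were chr17:62008750-62008776 at 179, chr5:37109473-37109499 (outside the rule for named loci and chosen after its values were seen) at 131 and chr11:100999578-100999604 at 130. Of the reads of the 3 highest loci, the small samples held 16.4%, the medium samples 39.6% and the large samples 44.0%, whereas the 320 typical loci had 14.3%, 35.6% and 50.1%. Of the 58 predicted loci of 28 bases, 44 had at least 10000 reads, and these had 16.7%, 39.99% and 43.3%. In small 1 the 3 loci had between 810 and 1017 reads, beside a median of 908.5 for those 28-base loci, and in large 11 between 1671 and 2148 beside 1894.5.

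The remaining high locus, chrX:83162286-83162312 on the plus strand, had 4367 reads, 3.64 times the median. It had 215, 135 and 202 reads in the small, 716, 520 and 344 in the medium and 584, 930 and 721 in the large samples. Summed by size, its distribution was near that of the typical loci, with 12.6% of its reads from the small, 36.2% from the medium and 51.2% from the large samples. Its level relative to the set was less even between pools, since the median locus had 77, 44 and 50 reads in small 1, 2 and 4. Without single samples its log2 fold change for large against small ranged from 0.106 to 0.619 under TMM.

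The lowest locus, chr11:100999578-100999604 on the plus strand, had 612 reads. Its counts were 43, 16 and 22 in the small, 145, 112 and 56 in the medium and 77, 87 and 54 in the large samples. Unlike the typical locus it had most of its reads in the medium samples, 51.1%, and 35.6% in the large ones. Its log2 fold change for large against medium was the lowest of the set, at -0.70 with a standard error of 0.39 and an FDR of 0.851 in the quasi-likelihood test.

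The locus at chr17:62008750-62008776 on the minus strand had 675 reads. It had 28, 27 and 21 reads in the small, 117, 160 and 32 in the medium and 94, 127 and 69 in the large samples. In medium 6 its count was 1.19 times that of the median locus, and in medium 8 it was 0.330 times, so its level relative to the set changed between pools of the same size.

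The last 2 low loci kept a steadier level. The locus at chr25:19043621-19043647 on the minus strand, with 708 reads, stayed between 0.477 and 0.699 times the median locus in all 9 samples. The locus at chr27:37645936-37645962 on the plus strand, with 664 reads, lies in the largest group and stayed between 0.480 and 0.741 times. Under TMM none of the 8 departing loci passed the test between large and small follicles, with log2 fold changes from -0.32 at the chromosome 6 locus to 0.30 at the chromosome X locus.

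The 27-base loci outside the miRNA lists gave a measure of how far the typical level extended. Of these 3271 loci, 2413 had totals below 845 reads, 269 had totals above 1795, and 589 lay in the same range as the typical predicted loci. By the distance between distributions over the 9 samples, 361 of the 589 lay within the 95th percentile of the typical predicted loci, and 279 of these 361 had an 18-base or 35-base neighbour at the distances above.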

How the data were processed

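The authors trimmed 3' adapters, mapped reads to UMD3.1 with BWA 0.7.5a, merged the 9 samples, dropped loci with an average below 45 reads per base, kept the stretch at 20% or more of the highest base, and deposited raw counts of reads per locus and sample, unnormalized. The study predicted miRNA among loci with a mean count of at least 100 in at least 1 size, from hairpin folding. Members and lists here were chosen with earlier results of these data known.

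All 101889 deposited loci were read, 85601 passed edgeR's filterByExpr, and these were fitted together with glmQLFit and glmQLFTest (edgeR 4.0.16, R 4.3.3), with follicle size as the only term and Benjamini-Hochberg adjustment over all loci at 0.05. Of the 328 loci all passed, and the lowest single count was 16. DESeq2 1.42.0, edgeR's exact test, other scalings, filters and sample sets were alternatives. Shares have 95% Wilson intervals. Scripts were tested on simulated data. The 3 samples of a size are separate pools of fluid, and the collection each came from was not entered as a term. Loci past the count minimum were added as a background after seeing the data. The loci named were those the study names, those departing from the median total by more than 1.5 times, the 3 with the largest chi-square over samples, not scaled by reads, and the groups with the most members. The rule also named called loci, of which there were none.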

Additional observations from a re-analysis of the deposited data

How the results depend on the processing

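No paired analysis was run. The replicate numbers of the small (1, 2, 4), medium (5, 6, 8) and large (10, 11, 12) samples are not shared between sizes. The collection behind each sample is not given in the sources used here. Size was the sole term of every fit, so the calls, and their absence, rest on a model that leaves out the collection. Scaling by the total count was the alternative that made calls: 266 loci higher in medium than in small and 328 higher in large than in small, with median log2 fold changes of 1.29, 1.91 and, for large against medium, 0.63. No other alternative called any of the 328 loci. For large against small, loci past the count minimum had 290 called higher and 2050 lower of 11770. With only those sizes fitted it was 812 and 5990 of 58346, and at an FDR of 0.1 it was 653 and 6187 of 85601. Leaving out each sample in turn also gave 0 calls among the 328. Over all loci the fewest calls for large against small were 24 higher and 2434 lower of 93012, without large 11. The most were 535 and 6648 of 97588, without medium 8. Median log2 fold changes of the 328 were then from -0.29 to 0.18, -0.01 to 0.27 and -0.03 to 0.45 for medium against small, large against small and large against medium. Leaving out samples gave mean shares of 0.181% to 0.186%, 0.383% to 0.502% and 0.607% to 0.713% in small, medium and large follicles. The share in small follicles was 0.197% over loci past the count minimum, 0.221% without the 10 highest-count other loci and 0.162% without the 8 departing loci, and the share in large follicles was 0.830% over loci past the minimum. Over loci of 18 to 30 bases the shares were 0.399%, 1.35% and 2.62%. A limit of 2 times left 4 departing loci, and with all loci the median variance-to-mean ratio was 118. Among the 9 named loci, the 4 with negative fold changes for large against small reversed under the total count, which moves all loci up (all-loci median 0.09 to 1.81), to 1.60 at chr11:100999578, 1.53 at chr17:72843353, 1.58 at chr19:38252 and 1.43 at chr6:17966846. Over loci past the minimum the chromosome 11 locus was at 0.0329 and the chromosome 19 locus at 0.0370. The chr27:37645936 locus, near 0, was at -0.00119 with DESeq2's size factors, -0.0748 in the predicted set alone and -0.00667 in DESeq2. Without single samples it ranged from -0.124 to 0.20, the chr25:19043621 locus from -0.0822 to 0.319 and the chromosome 11 locus from -0.472 to 0.0543. The causes were not tested. At 3 pools per size and a standard error near 0.40, small changes were not detectable.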

Other observations

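A few loci outside the rule for named loci, chosen after their values were seen, also departed in their distribution over samples while their totals lay inside the 1.5 times limit. The locus at chr5:37109473-37109499 on the plus strand had 264 reads in medium 6, 1.96 times the median locus, and 139 in medium 5, 0.720 times. At chr25:30331811-30331837, on the plus strand, the count in large 12 was 295, beside a median of 199. The minus-strand locus at chr7:51289389-51289415 had 289 reads in large 12, and its neighbour at chr7:51287995-51288021 had 263. The locus at chr8:36117592-36117618 on the minus strand, with 1795 reads, had the highest total among those inside the 1.5 times limit, and its count relative to the median locus ranged from 1.05 to 2.11 times over the samples.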
